A study of Rattus norvegicus with 62 samples.

Results

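Hearts of male rats of the outbred Wistar strain were compared 24 h after the last of 14 days of daily oral dosing with 80 mg/kg rosiglitazone or with vehicle. The comparison took the 5 arrays titled for 80 mg/kg and the 6 titled for vehicle at 24 h, 11 of the 62 arrays of the series. RNA of cardiac muscle was read on an Affymetrix rat array, in which a probe set, a group of short probes, reports 1 transcript. The series also held 5 arrays of 10 mg/kg at 24 h, used here for dose, and 30 arrays of 80 mg/kg and vehicle sampled 6, 168 and 336 h after the last dose, used here for time. The rats' age is not given in the sources used here, and the labels do not state whether arrays of a group are separate animals. The p-values therefore cover only the spread among arrays, which may in part be technical.

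Rosiglitazone, a thiazolidinedione drug, switches on the nuclear receptor PPAR gamma, which drives fat cell differentiation and, in capillary endothelium, genes that bring fatty acids to muscle. The heart burns mainly fatty acids, which reach it through lipoprotein lipase anchored on capillaries, the fatty acid transporter CD36 and intracellular fatty acid binding proteins. The heart also runs a circadian clock. In it BMAL1 and CLOCK activate their own repressors (PER, CRY, REV-ERB and the BHLHE40 and BHLHE41 proteins) and output factors such as DBP.

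Values are log2 signals after quantile normalization over all 62 arrays, which gives every array the same distribution of signals. Differences are 80 mg/kg minus vehicle in log2 units with their standard error (SE). Of 31042 probe sets, 18625 passed a filter on dim signals (mean log2 signal at or above 5.03) and were tested with limma, a linear model fitted across all probe sets. A probe set was called at a Benjamini-Hochberg adjusted p under 0.05. Changes are relative to the other probe sets of an array. Over all tested probe sets the median difference was −0.02 here, −0.30 on the scale as deposited and −0.17 after median scaling.

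Several of the 11 arrays stood apart from the rest. Myl7, the atrial myosin light chain gene, stood at 12.86, 7.56, 12.94, 11.997 and 7.59 at 80 mg/kg (replicates 2 to 6), against 6.67, 7.30, 7.45, 6.82, 7.97 and 7.55 in vehicle (replicates 1 to 6). Thus 3 of 5 treated arrays and 0 of 6 vehicle arrays lay above a level of 9. The actin 3′ to 5′ difference, a control that rises with RNA breakdown, was between 0.62 and 0.92 at 80 mg/kg. In vehicle it was 2.12 in replicate 1, 1.75 in replicate 4 and between 0.77 and 1.04 in the other arrays. The same difference for hexokinase, another such control, was 1.49 to 2.59 at 80 mg/kg and 1.87 to 6.08 in vehicle. It was 6.08 in vehicle replicate 4 and 3.59 in vehicle replicate 5, whose actin difference was low. In the first principal components the arrays of the series formed 3 clusters, which held 2, 2 and 1 of the arrays at 80 mg/kg and 1, 0 and 5 of the vehicle arrays. The part of tissue, RNA quality and cluster in the differences below was not tested beyond fits that leave arrays out or use the cluster as a block. Values from these fits are given for the main genes, and the calls they kept for all 26 called probe sets.

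**Figure D1:**
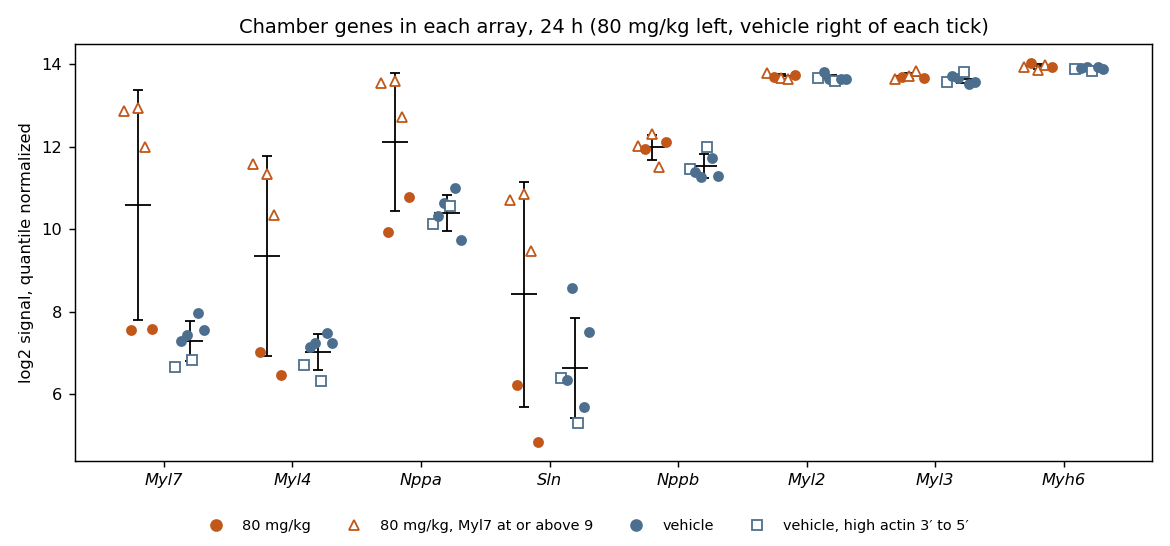
Log2 signal (vertical axis) of 8 genes that mark heart chambers, in each of the 5 arrays of 80 mg/kg (left of each tick) and the 6 of vehicle (right), with mean and SD as black bars. Open triangles are the 3 treated arrays with Myl7 above 9, and in Myl7, Myl4 and Nppa these lie above every other array, while Myl2, Myl3 and Myh6 lie close together in both groups.

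Other atrial genes were high in the same 3 treated arrays. Myl4, another atrial light chain, was at 11.58, 11.34 and 10.35 in the 3 treated arrays with high Myl7, against 6.33 to 7.48 in vehicle. Nppa, the atrial natriuretic peptide gene, was at 13.55, 13.59 and 12.73 in these 3 arrays and at 9.93 and 10.79 in the other treated arrays, against 9.75 to 11.01 in vehicle. Of 13 tested genes on an atrial list, 10 were positive (45.6% of all tested probe sets were) and 0 were called, with a summed signal of 8820 to 33998 at 80 mg/kg and 8960 to 10475 in vehicle. In the 2 treated arrays with low Myl7 the sum was 8820 and 9894, and without the high-Myl7 arrays 4 of the 13 genes were positive. Myl2, the ventricular light chain, was at 13.71 ± 0.06 (SD, n = 5) at 80 mg/kg and 13.67 ± 0.07 (SD, n = 6) in vehicle.

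At 80 mg/kg 26 probe sets were called (0.14% of those tested), 14 higher (0.0752%) and 12 lower (0.0644%). Without adjustment 2065 (11.1%) had a p under 0.05. The 14 that rose differed 1.22-fold to 7.71-fold, and the 12 that fell were 1.26-fold to 3.18-fold lower. Of the 26, 23 carried 1 gene. Values of the 2 groups did not overlap in 17 of the 26, against 1.08% of all tested probe sets. By role the called genes held a group of capillary lipid genes, a group of clock genes, and single genes of muscle structure, glycolysis and DNA replication. Median scaling called 214 probe sets, 15 higher and 199 lower, and the scale as deposited called 1, which was higher. With the 11 arrays fitted alone 0 passed in limma, with 1690 at an unadjusted p under 0.05.

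A set of 3 lipid-handling genes known from capillary endothelium and fat tissue rose at 80 mg/kg. Rbp7, which encodes a retinol carrier found in fat and in capillaries, stood at 11.997, 10.21, 11.16, 10.71 and 10.00 at 80 mg/kg, against 7.84, 7.74, 7.64, 9.001, 7.47 and 7.51 in vehicle. Every treated array lay above every vehicle array, and the highest vehicle value, 9.001, came from replicate 4. Rbp7 rose 7.71-fold (95% interval 4.52 to 13.2, limma adjusted p = 7.65e-06).

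Gpihbp1, which anchors lipoprotein lipase on the capillary surface, stood at 9.67, 8.78, 9.68, 9.57 and 9.36 at 80 mg/kg, against 7.46, 7.89, 7.69, 8.63, 7.17 and 7.45 in vehicle. The groups did not overlap, though treated replicate 3 and vehicle replicate 4 lay only 0.16 apart. It rose 3.25-fold (95% interval 2.27 to 4.64, limma adjusted p = 8.87e-05). Fabp4 encodes a carrier of fatty acids inside fat cells and capillary endothelial cells. It had values of 12.94, 12.45, 12.68, 12.64 and 12.21 at 80 mg/kg. In vehicle Fabp4 lay in the narrow range of 11.72 to 12.06 with a median of 11.82. It rose 1.66-fold (95% interval 1.38 to 1.99, limma adjusted p = 0.00374).

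**Figure D2:**
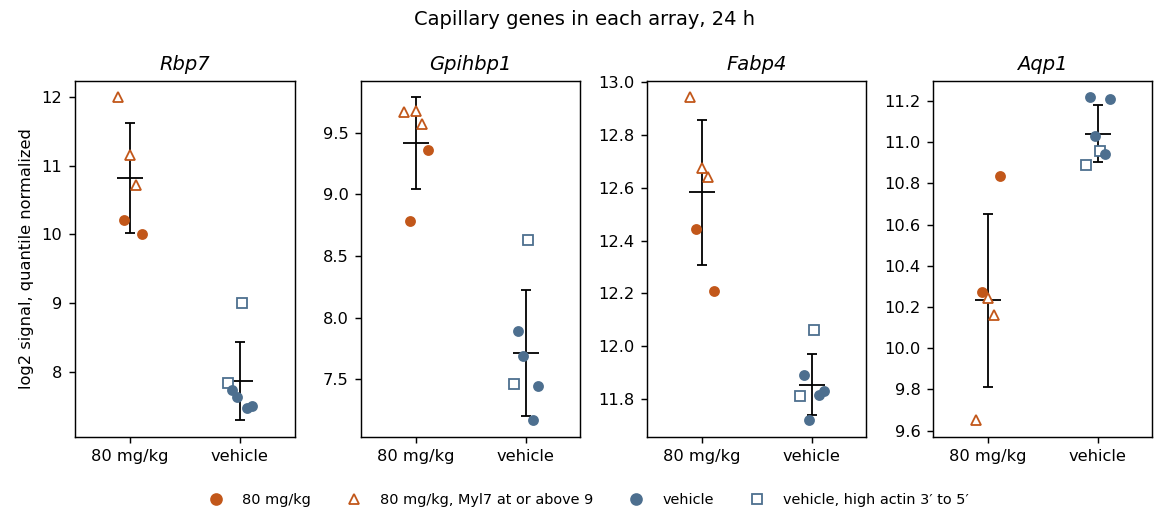
Log2 signal (vertical axes) of Rbp7, Gpihbp1, Fabp4 and Aqp1 in each array at 24 h, 80 mg/kg left and vehicle right, with mean and SD as black bars. The groups do not overlap in any of the 4 genes, and within 80 mg/kg the 3 arrays with high Myl7 (open triangles) hold the highest values of Rbp7 and Fabp4 and the lowest of Aqp1.

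Aqp1, a water channel found in capillaries and in erythrocytes, went the other way. It stood at 9.65, 10.27, 10.24, 10.16 and 10.83 at 80 mg/kg, against 10.89, 11.22, 11.03, 10.96, 10.95 and 11.21 in vehicle. No treated array reached the lowest vehicle array, and Aqp1 fell 1.75-fold (difference −0.81, SE 0.12, limma adjusted p = 8.87e-05). Its other tested probe set, at a lower signal, gave −0.11 (SE 0.30, adjusted p = 0.921), so the fall rests on 1 probe set at this time. Hbb, a haemoglobin gene that marks red blood cells, was at 13.32 ± 0.14 (SD, n = 5) at 80 mg/kg and 13.42 ± 0.10 (SD, n = 6) in vehicle (adjusted p = 0.743).

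Most other genes of the same capillary lists did not pass the test. Of 19 tested genes for lipid entry through capillaries 3 rose, 0 fell and 16 were not called (median −0.02, the same as that of all tested probe sets). Cd36, the main fatty acid transporter of heart muscle, was at 12.42 ± 0.37 (SD, n = 5) at 80 mg/kg and 11.91 ± 0.30 (SD, n = 6) in vehicle (difference 0.51, SE 0.17, adjusted p = 0.28). Lpl, lipoprotein lipase itself, differed by −0.08 (95% interval −0.20 to 0.05), Fabp3, the fatty acid binding protein of heart muscle cells, by −0.02 (−0.09 to 0.06), and Fabp5, its endothelial relative, by 0.21 (−0.11 to 0.53).

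General endothelial markers were not called. The capillary endothelium list of 16 tested genes held the same 3 that rose and Aqp1 as the 1 that fell, with 5 positive and 11 negative and a median of −0.06. The 5 positive genes include the 3 that rose and Cd36, so the general markers of the list were mostly negative. Values of the groups did not overlap in 5 of the 16, the called genes among them, against 1.08% of all tested probe sets. The list's defining members Pecam1 (−0.07), Kdr (−0.08), Cldn5 (−0.01) and Vwf (−0.02), chosen after their values were seen, were not called. The summed signal of the list was 17471 to 25128 at 80 mg/kg and 14241 to 16881 in vehicle, a sum that includes the called genes, of which Fabp4 is the brightest. Over the 12 members that were not called it was 9231 to 11545 at 80 mg/kg and 8344 to 10383 in vehicle, ranges that overlap. These 12 include Cd36 (difference 0.51), a bright gene that makes up a large part of the sum. The sum therefore says little about the general markers. Fewer cells of a type and less RNA per cell cannot be told apart in such bulk tissue. Of the adipocyte list, Fabp4 rose and 5 of the 6 tested genes were not called, and its defining markers Adipoq, Plin1, Cidec and Lep lay below the filter on dim signals.

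All 4 capillary differences were smaller without the high-Myl7 arrays. Rbp7 was then at 2.24 (adjusted p = 0.00346) and Gpihbp1 at 1.36 (adjusted p = 0.029), both still called. Fabp4 was at 0.47 (adjusted p = 0.116) and Aqp1 at −0.49 (adjusted p = 0.155), no longer called and 1.54 and 1.65 times smaller. Rbp7, Gpihbp1 and Aqp1 were called in all 11 fits that left out 1 array, and Fabp4 in 10, all but the fit without 80 mg/kg replicate 2 (adjusted p = 0.0521). With the array cluster as a block Rbp7 was at 2.85, Gpihbp1 at 1.56, Fabp4 at 0.75 and Aqp1 at −0.85, all called. With the 11 arrays fitted alone all 4 lost their call. Gpihbp1, Fabp4 and Aqp1 also lost it on the scale as deposited and with a replicate block in the 24 h arrays. Fabp4 lost it with median scaling too, and Aqp1 with probe sets averaged per gene.

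Circadian clock genes formed the other group. Bhlhe41, a repressor of the clock that is itself switched on by it, stood at 8.87, 8.90, 8.62, 8.89 and 8.64 at 80 mg/kg, against 8.12, 7.93, 7.46, 7.60, 8.21 and 8.01 in vehicle. The treated arrays lay close together and all above vehicle. Bhlhe41 rose 1.86-fold (95% interval 1.55 to 2.23, limma adjusted p = 8.87e-05).

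Bhlhe40, its close relative, stood at 7.21, 7.96, 7.92, 7.46 and 8.32 at 80 mg/kg, against 6.47, 6.83, 5.77, 5.97, 6.51 and 6.46 in vehicle. It rose 2.71-fold (95% interval 1.79 to 4.10, adjusted p = 0.0187). Dbp, an output transcription factor of the clock, stood at 8.64, 8.56, 8.55, 8.77 and 8.73 at 80 mg/kg, against 7.21, 7.07, 6.82, 6.64, 8.004 and 7.98 in vehicle. The groups did not overlap in either gene, and the spread of Dbp was 0.10 at 80 mg/kg (SD, n = 5) and 0.58 in vehicle (SD, n = 6). Dbp rose 2.57-fold (95% interval 1.74 to 3.80, adjusted p = 0.0187). Klf13, a zinc finger factor on the clock output list, rose 2.53-fold (95% interval 1.65 to 3.87, adjusted p = 0.0437). Its vehicle mean of 4.97 lay below the filter level, so the size of its rise is uncertain.

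**Figure D3:**
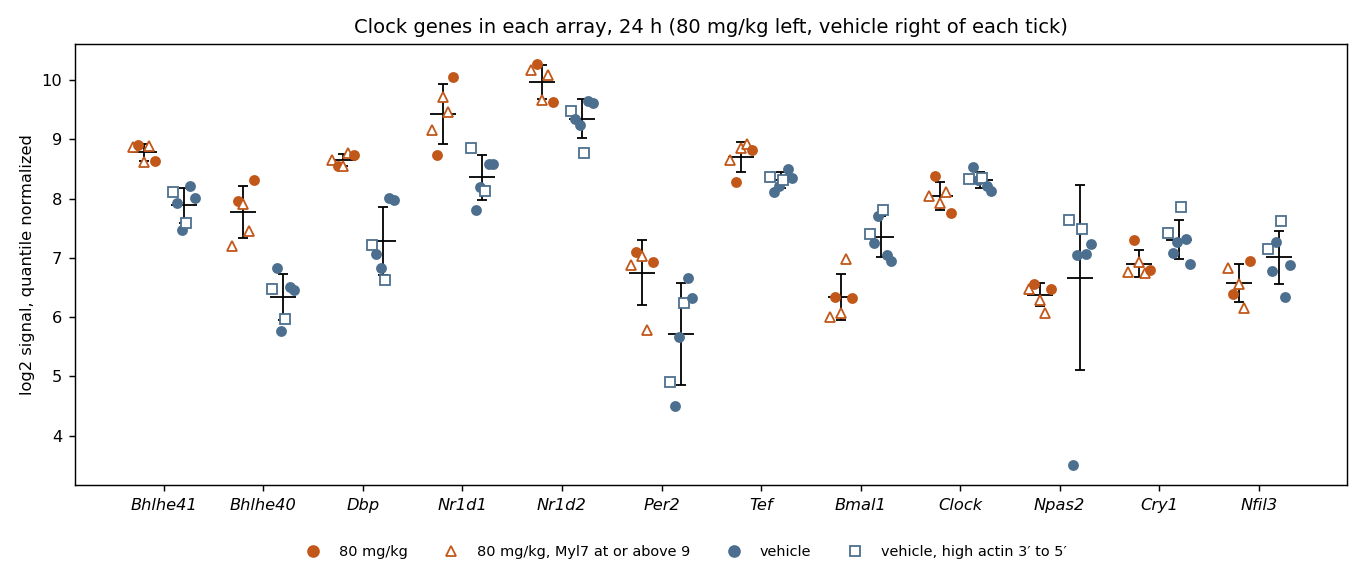
Log2 signal (vertical axis) of 12 clock genes in each array at 24 h, 80 mg/kg left of each tick and vehicle right, with mean and SD as black bars. Bhlhe41, Bhlhe40 and Dbp, the 3 of these that were called, separate completely, while in Bmal1, Nr1d1, Nr1d2 and Per2 the groups differ in mean but overlap.

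Other members of the clock did not pass the test, and their differences ran in both directions. Of 10 tested repressors 2 rose, 0 fell and 8 were not called (median 0.34, against −0.02 over all tested probe sets). Their summed signal was 3109 to 3884 at 80 mg/kg and 1938 to 2672 in vehicle, a sum that includes the called Bhlhe40 and Bhlhe41. Over the 8 that were not called it was 2495 to 3166 at 80 mg/kg and 1682 to 2284 in vehicle, also without overlap. Nr1d2, a bright gene (mean 9.97 at 80 mg/kg and 9.35 in vehicle), makes up a large part of this sum. Of the 10 repressors 6 were positive (45.6% of all tested probe sets were) and 4 negative, so the sum does not stand for each gene. Nr1d1 and Nr1d2, which encode the REV-ERB repressors, had differences of 1.07 (SE 0.32, adjusted p = 0.202) and 0.62 (SE 0.20, adjusted p = 0.226). Per2 differed by 1.03 (SE 0.35, adjusted p = 0.267) and Cry1 by −0.40 (SE 0.17, adjusted p = 0.37).

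Of 5 tested activators 0 were called (median −0.26). Bmal1, which peaks opposite to Dbp in the daily cycle, stood at 6.00, 6.35, 6.07, 6.99 and 6.32 at 80 mg/kg, against 7.40, 7.25, 7.71, 7.81, 7.04 and 6.94 in vehicle. Treated replicate 5, at 6.99, reached into the vehicle range. The difference was −1.01 (SE 0.26, limma adjusted p = 0.101). Clock differed by −0.26 (SE 0.12, adjusted p = 0.388), and its other tested probe sets by −0.50 and −1.46. Of 19 tested output genes 2 rose, Dbp and Klf13, 0 fell and 17 were not called (median 0.12), among them Klf9 (0.58, adjusted p = 0.152), Klf15 (0.46, adjusted p = 0.251) and Tef (0.39, adjusted p = 0.352). Per3 lay below the filter on dim signals. The labels used here give no clock hour of sampling, so time of day and treatment cannot be told apart.

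The clock calls also changed with the arrays left out. Without the high-Myl7 arrays Bhlhe40 was at 1.81 (adjusted p = 0.0415) and Bhlhe41 at 0.88 (adjusted p = 0.029), both called, and Dbp at 1.36 (adjusted p = 0.211). Without the arrays of high actin difference Bhlhe41 was at 0.88 (adjusted p = 0.000487), Bhlhe40 at 1.38 (adjusted p = 0.187) and Dbp at 1.18 (adjusted p = 0.225). With the array cluster as a block Bhlhe40 was at 0.84 (adjusted p = 0.262), 1.70 times smaller, and Dbp at 1.32 (adjusted p = 0.0542). Klf13 was not called without the high-Myl7 arrays (1.55, adjusted p = 0.106), without the high-actin arrays (1.35, adjusted p = 0.22) or with the cluster as a block (0.79, adjusted p = 0.37), where it was 1.69 times smaller. Bhlhe41 kept its call in all 11 fits that left out 1 array, Dbp in 8, Bhlhe40 in 6 and Klf13 in 4. With both the high-Myl7 and the high-actin arrays left out, 0 of 10 repressors and 0 of 19 output genes were called. That fit was chosen after seeing the data. Bhlhe41 also lost its call on the scale as deposited, with the 11 arrays alone and with a replicate block in the 24 h arrays.

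BMAL1 and CLOCK bind the E-box CACGTG, D-box factors such as DBP bind TTACGTAA, and REV-ERB and PPAR, like other nuclear receptors, bind sites built on AGGTCA. These letters were searched on both strands in the 250 bases before each gene start, in promoter sequences from RefSeq (build GRCr8). The E-box stood in 5.59% of 33469 promoters, the D-box in 0.108% and AGGTCA in 14.1%. The palindromes CACGTG and TTACGTAA read the same on both strands. Of the 23 called genes 18 had a promoter entry, and of these 3 held the E-box (Bhlhe40, Bhlhe41 and Arhgap15), 0 the D-box and 3 AGGTCA. The windows below show the matches in clock genes that were called or in the fixed set of named genes, since their signals are those described above, with the motif in capitals, 5′ to 3′ on the gene's strand. The match starts 220 bases before the gene start in Bhlhe40, 48 in Bhlhe41, 198 in Tef, 101 in Klf15, 15 in Bmal1 and 187 in Nr1d2.
Bhlhe40, E-box, chr4:143174203-143174262, plus strand: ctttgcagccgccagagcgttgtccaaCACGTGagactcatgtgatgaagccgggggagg
Bhlhe41, E-box, chr4:180569371-180569430, minus strand: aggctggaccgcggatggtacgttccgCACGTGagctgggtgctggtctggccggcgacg
Tef, E-box, chr7:115206602-115206661, plus strand: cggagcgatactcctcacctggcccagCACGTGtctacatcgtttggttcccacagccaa
Klf15, E-box, chr4:124522887-124522946, plus strand: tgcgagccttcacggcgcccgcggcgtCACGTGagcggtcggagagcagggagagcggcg
Bmal1, AGGTCA, chr1:176766286-176766327, plus strand: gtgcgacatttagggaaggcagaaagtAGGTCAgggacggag
Nr1d2, AGGTCA, chr15:9954820-9954879, plus strand: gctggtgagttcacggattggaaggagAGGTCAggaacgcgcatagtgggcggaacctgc
A match is a description of these letters, not a bound site. Dbp, Nr1d1 and Per2 held neither the E-box nor the D-box in this window.

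Genes of muscle structure and of glycolysis changed singly. Tcap, a protein that caps titin at the sarcomere's Z-disc, stood at 12.91, 12.97, 12.79, 13.01 and 12.96 at 80 mg/kg, against 12.18, 12.33, 12.50, 12.11, 12.52 and 12.65 in vehicle. The groups did not overlap, and Tcap rose 1.46-fold (95% interval 1.24 to 1.72, adjusted p = 0.0253). It was not called without the high-Myl7 arrays (0.58, adjusted p = 0.218), without the high-actin arrays (0.43, adjusted p = 0.386) or with the cluster as a block (0.49, adjusted p = 0.202). Eno3, the enolase of muscle, stood at 11.75, 11.14, 11.27, 11.45 and 11.26 at 80 mg/kg, against 12.10, 11.78, 12.06, 11.96, 12.19 and 11.73 in vehicle. Treated replicate 2 just reached the lowest vehicle array. Eno3 fell 1.51-fold (difference −0.60, SE 0.13, adjusted p = 0.0231). It was at −0.77 without the high-Myl7 arrays (adjusted p = 0.00346), but was not called without the high-actin arrays (−0.57, adjusted p = 0.22) or with the cluster as a block (−0.60, adjusted p = 0.0807), and kept its call in 4 of the 11 fits that left out 1 array. It was the 1 called gene of 24 tested for glucose use, of which 23 were not called (median −0.04). Among those, Slc2a4, the insulin-responsive glucose transporter, differed by 0.01 (95% interval −0.24 to 0.27).

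Myl12a, a regulatory light chain of nonmuscle myosin with a near-identical copy Myl12b, rose 1.22-fold (difference 0.29, SE 0.06, adjusted p = 0.0135). On the scale as deposited its difference was −0.029, which was 0.27 above the median of all tested probe sets there. Palmd, palmdelphin, stood at 8.93 ± 0.35 (SD, n = 5) at 80 mg/kg and 9.77 ± 0.25 (SD, n = 6) in vehicle (difference −0.84, SE 0.18, adjusted p = 0.0231). Its other tested probe sets were at −0.25 and 0.23. Afdn, afadin of cell junctions, fell by 0.33 (SE 0.08, adjusted p = 0.044), while its 2 other probe sets gave 0.51 and 0.49, so its direction is uncertain.

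The remaining genes that rose have varied roles. Ephx1, an epoxide hydrolase that detoxifies xenobiotics, stood at 7.71, 7.52, 7.35, 7.85 and 7.19 at 80 mg/kg, against 6.70, 5.91, 7.04, 6.85, 6.60 and 6.76 in vehicle. All treated arrays lay above vehicle, and Ephx1 rose 1.84-fold (95% interval 1.43 to 2.38, adjusted p = 0.0187). Without the high-Myl7 arrays it was at 0.71 (adjusted p = 0.32). Lpar6, a receptor for lysophosphatidic acid, rose 1.81-fold (95% interval 1.42 to 2.31, adjusted p = 0.0163), with vehicle replicate 4, at 8.12, inside the treated range. H1f2, a linker histone from a family of near copies, rose 1.33-fold (adjusted p = 0.0392). Kif3a, a kinesin motor subunit, was at 5.61 ± 0.52 (SD, n = 5) at 80 mg/kg and 3.89 ± 1.28 (SD, n = 6) in vehicle (adjusted p = 0.0231). Its vehicle mean lay below the filter level and its other probe set gave −0.18. Probe set 1386901_at, which the annotation gives to several genes, rose by 0.45 (SE 0.08, adjusted p = 0.00912).

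Several genes that fell were dim at 80 mg/kg. Mcm6, a subunit of the DNA replication helicase, stood at 3.77, 5.50, 3.11, 5.17 and 5.81 at 80 mg/kg, against 6.06, 6.37, 5.85, 6.54, 6.29 and 5.72 in vehicle. Its lowest values were those of treated replicates 2 and 4, which have high Myl7. The difference of −1.46 (SE 0.30, adjusted p = 0.0187) was −0.48 without the high-Myl7 arrays (adjusted p = 0.652). Sh3pxd2b, a podosome adaptor, stood at 1.77, 4.98, 3.52, 4.86 and 4.56 at 80 mg/kg, against 5.03 to 5.79 in vehicle (difference −1.67, SE 0.37, adjusted p = 0.0278), and was at −0.84 without the high-Myl7 arrays (adjusted p = 0.496). Of 19 tested cell cycle genes Mcm6 was the 1 called, and Mcm5, a partner of it in the helicase, differed by 0.49 (SE 0.15, adjusted p = 0.212).

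Eola2, whose role is little known, fell by 1.24 (SE 0.27, adjusted p = 0.0231), while its brighter probe set gave 0.14. Lsm11, a part of the histone mRNA processing complex, fell by 0.91 (SE 0.21, adjusted p = 0.05 after rounding), with treated replicate 3, at 6.14, above every vehicle array. Its brighter probe set gave −0.17 (limma adjusted p = 0.645), and the call held in 1 of the 11 fits that left out 1 array. Arhgap15, a regulator of the GTPase RAC, fell by 0.82 (SE 0.18, adjusted p = 0.0287), and Gripap1, an endosomal trafficking protein, by 0.62 (SE 0.13, adjusted p = 0.0201). Gripap1 lay between 6.88 and 7.22 at 80 mg/kg and between 7.48 and 7.87 in vehicle. Probe sets 1381409_at and 1389394_at, for which the annotation gives no single gene, fell by 1.15 (SE 0.23) and 0.41 (SE 0.09). Group means lay below the filter level at 80 mg/kg for 5 of the 12 that fell, so their sizes are uncertain.

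Genes of fatty acid burning in heart muscle, targets of PPAR alpha, were not called. Of 22 tested genes of fatty acid oxidation 0 passed, with a median of 0.01. Cpt1b, the muscle enzyme that admits fatty acids to mitochondria, differed by −0.07 (95% interval −0.22 to 0.07) and Acadm, an acyl-CoA dehydrogenase, by 0.03 (−0.10 to 0.17). Of 17 tested PPAR target genes of muscle 0 passed, with a median of −0.02. Ucp3, the uncoupling protein of muscle, stood at 4.29, 5.38, 6.47, 4.33 and 5.33 at 80 mg/kg, against 6.49, 7.25, 6.87, 7.03, 6.53 and 6.75 in vehicle. The groups did not overlap, by a gap of 0.03, and the difference was −1.66 (SE 0.43, adjusted p = 0.11). Pdk4, the kinase that shuts glucose carbon out of mitochondria, differed by −0.49 (SE 0.24, adjusted p = 0.445), and Plin2, a lipid droplet coat protein, by 0.12 (95% interval −0.06 to 0.30). Pparg, the drug's receptor, differed by 0.06 (95% interval −0.36 to 0.48). Angptl4 lay below the filter on dim signals.

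Other lists also had 0 called members. These were the lists for oxidative phosphorylation (26 tested, median −0.01), extracellular matrix (32 tested, median −0.07), heat shock proteins (22 tested, median −0.14), antioxidant genes (22 tested, median −0.06), glucocorticoid and FOXO targets (23 tested, median −0.07) and hypertrophy and wall stress (12 tested, median 0.01). Lum, the matrix proteoglycan lumican, stood at 11.64, 11.84, 11.60, 11.34 and 11.16 at 80 mg/kg, against 10.85 to 11.15 in vehicle. It missed the threshold at 0.45 (SE 0.11, adjusted p = 0.0617). Nppb, the ventricular stress peptide gene, differed by 0.46 (SE 0.22, adjusted p = 0.444). Macrophage (13 tested), fibroblast (12) and smooth muscle lists (11) had 0 called and medians of 0.00, −0.03 and −0.17.

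The effect at 24 h was then compared with the mean of the effects of 80 mg/kg at 6, 168 and 336 h, each against its own vehicle arrays, to ask what set this sampling time apart. In this contrast 7 probe sets were called (0.0376%), 4 of them higher and 3 lower, while 2105 had a p under 0.05 before adjustment. The separate comparisons at 6, 168 and 336 h called 0.0537%, 0.0537% and 0.29% of probe sets. Bhlhe41 was at 0.90 at 24 h, against −0.05, −0.11 and −0.49 at 6, 168 and 336 h, an excess of 1.11 (SE 0.15, adjusted p = 3.98e-05). Bhlhe40 was at 1.44 at 24 h, against −0.60, −0.10 and −0.37 (excess 1.80, SE 0.35, adjusted p = 0.0237). Dbp was at 1.36, against 0.14, −0.41 and −0.75 (excess 1.70, SE 0.33, adjusted p = 0.0237). These 3 clock genes were thus near or below 0 at the other times. Klf13, at 1.34 at 24 h against −0.19, −0.07 and −0.24, did not pass in this contrast (excess 1.51, adjusted p = 0.0917).

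Tcap was at 0.55 against 0.02, −0.11 and −0.28 (excess 0.67, SE 0.14, adjusted p = 0.0338). Mcm6 was at −1.46 against −0.12, 0.18 and 0.78 (excess −1.74, adjusted p = 0.0338), and Palmd at −0.84 against 0.22, 0.00 and 0.33 (excess −1.02, adjusted p = 0.0338). Fam43a was at −0.22, against 0.23, 0.27 and 0.43 (excess −0.53, adjusted p = 0.0338). Without the high-actin arrays 1 probe set was called in this contrast. Leaving out vehicle replicate 1, vehicle replicate 4 or 80 mg/kg replicate 4 of 24 h also gave 1. Without the high-Myl7 arrays 19 were called, 3 of them among the 7. Some arrays of 6 h also had high Myl7, at 12.09 and 11.91 in 80 mg/kg replicates 2 and 4 and 12.29 in vehicle replicate 6. Vehicle replicate 1 of 6 h had an actin difference of 1.68.

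The capillary genes were not among the 7. Rbp7 was at 2.95 at 24 h, against 2.93, 3.76 and 4.10 (excess −0.65, SE 0.45, adjusted p = 0.581). Gpihbp1 was at 1.70, against 1.48, 2.42 and 2.62 (excess −0.47, SE 0.30, adjusted p = 0.541), and Fabp4 at 0.73, against 1.004, 0.94 and 1.04 (excess −0.27, SE 0.15, adjusted p = 0.504). Aqp1 was at −0.81, against −0.15, −1.25 and −1.70 (excess 0.23, SE 0.14, adjusted p = 0.54), so its mean at the other times spans values on both sides of that at 24 h. Ephx1, at 0.88, was at 0.72, 0.60 and 0.51 at the other times, none of them called.

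**Figure D4:**
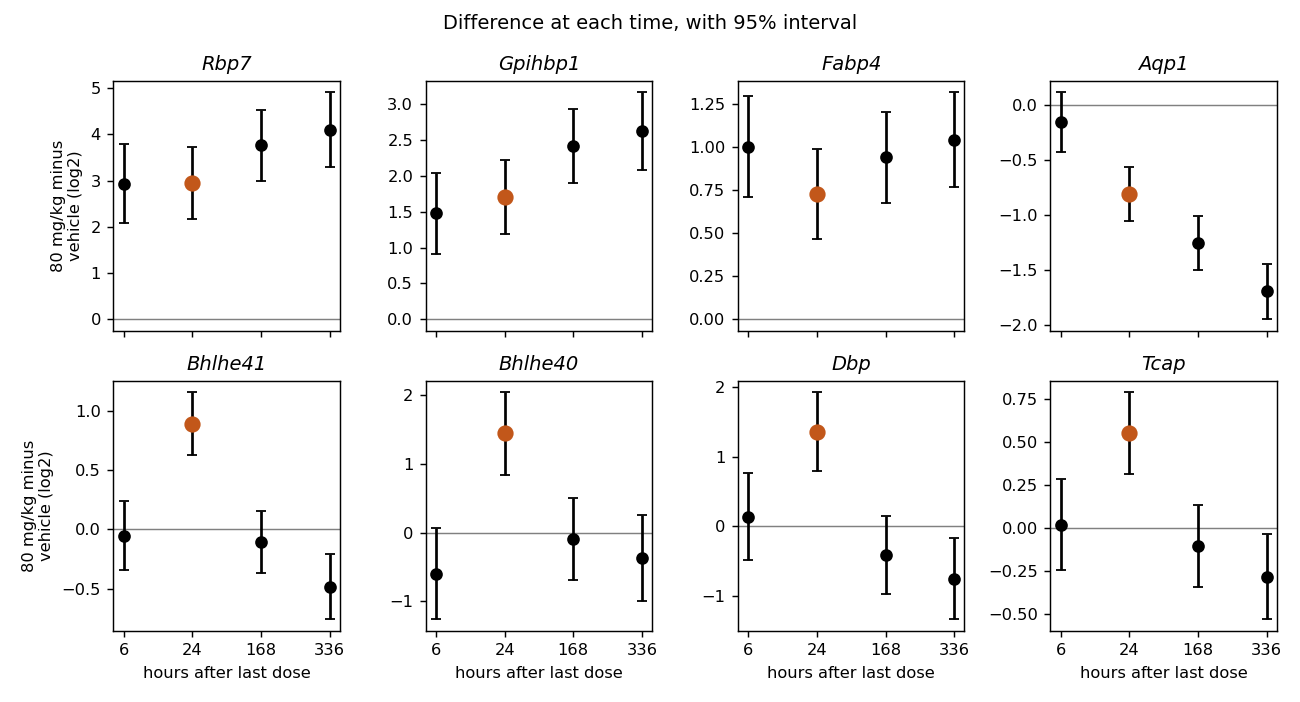
Difference between 80 mg/kg and vehicle (log2, vertical axes, scaled per gene) at 6, 24, 168 and 336 h after the last dose (times evenly spaced), with 95% intervals from limma and 24 h in orange. Rbp7, Gpihbp1 and Fabp4 stay above 0 at all 4 times and Aqp1 lies lowest at 336 h, while Bhlhe41, Bhlhe40, Dbp and Tcap stand clear above 0 at 24 h alone.

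Dose at 24 h was examined with the 5 arrays of 10 mg/kg, which share the vehicle arrays. Myl7 lay between 7.59 and 8.71 at 10 mg/kg, so 0 of these 5 arrays were above 9, against 3 of 5 at 80 mg/kg. The 2 doses thus also differed in Myl7. Its part in the dose differences was not tested beyond fits that leave out the high-Myl7 arrays or use Myl7 as a covariate. At 10 mg/kg 0 probe sets were called against vehicle in limma (0%), with 1088 at an unadjusted p under 0.05. Between 80 and 10 mg/kg 2 were called (0.0107%), Rbp7 and Aqp1. Rbp7 stood at 8.15, 8.91, 8.37, 8.92 and 8.83 at 10 mg/kg, below every array of 80 mg/kg (80 minus 10 mg/kg 2.18, SE 0.40, adjusted p = 0.0139). Aqp1 stood at 11.02, 11.06, 11.23, 10.95 and 10.64 at 10 mg/kg, so that 1 array lay inside the range of 80 mg/kg (80 minus 10 mg/kg −0.75, SE 0.13, adjusted p = 0.00522). Between the doses Gpihbp1 differed by 1.30 (SE 0.27, adjusted p = 0.0602), and for Fabp4 the difference of 0.50 had an SE of 0.14 (adjusted p = 0.564).

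For the clock genes the 2 doses were not told apart. At 10 mg/kg Bhlhe41 ranged from 8.20 to 8.60, which differed from vehicle by 0.46 (SE 0.13, adjusted p = 0.523), and 80 minus 10 mg/kg was 0.44 (SE 0.14, adjusted p = 0.714). Bhlhe40 ranged from 6.13 to 8.25 at 10 mg/kg, and Dbp from 7.45 to 8.62. Their differences between 80 and 10 mg/kg were 0.58 (SE 0.31) and 0.67 (SE 0.29), both with an adjusted p of 1. Tcap averaged 12.81 at 10 mg/kg, 0.12 below 80 mg/kg (SE 0.12, adjusted p = 1). Without 80 mg/kg replicate 2 or 10 mg/kg replicate 3 the dose comparison called 0 probe sets, and without the high-Myl7 arrays 8, all of them lower and neither of the 2 among them.

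Without the high-Myl7 arrays the comparison with vehicle called 24 probe sets, 5 higher and 19 lower, and 7 of these were among the 26. The 7 were Rbp7, Gpihbp1, Bhlhe40, Bhlhe41, H1f2, Eno3 and Afdn. All 26 kept their sign in this fit, in that without the high-actin arrays and under a block for array cluster. The 26 were picked from these same arrays, so a kept sign was likely beforehand and is not a separate test. Without the high-Myl7 arrays, which leaves 2 treated arrays, 19 lost their call. Some kept their size, such as Dbp (1.36), Kif3a (1.94), Tcap (0.58) and Palmd (−0.90), against 1.36, 1.72, 0.55 and −0.84 with all arrays. Others shrank, such as Mcm6 (−0.48), Sh3pxd2b (−0.84), Aqp1 (−0.49) and Fabp4 (0.47), against −1.46, −1.67, −0.81 and 0.73. Why these calls were lost was not tested. Without the high-actin arrays 8 were called, 7 higher and 1 lower, all of them among the 26 (Rbp7, Kif3a, Gpihbp1, Bhlhe41, Ephx1, Lpar6, Fabp4 and Aqp1). With the cluster as a block 9 of the 26 were called, namely Rbp7, Gpihbp1, Bhlhe41, Ephx1, Lpar6, Fabp4, Aqp1, Gripap1 and probe set 1386901_at. Rbp7, Gpihbp1 and Bhlhe41 were the 3 called in all of these fits. With both the high-Myl7 and the high-actin arrays left out at once, Bhlhe41 was not called. Of the 26, 12 were called in none of the 3 fits. These 12 were Dbp, Klf13, Tcap, Myl12a, Sh3pxd2b, Mcm6, Eola2, Lsm11, Palmd, Arhgap15 and probe sets 1381409_at and 1389394_at.

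**Figure D5:**
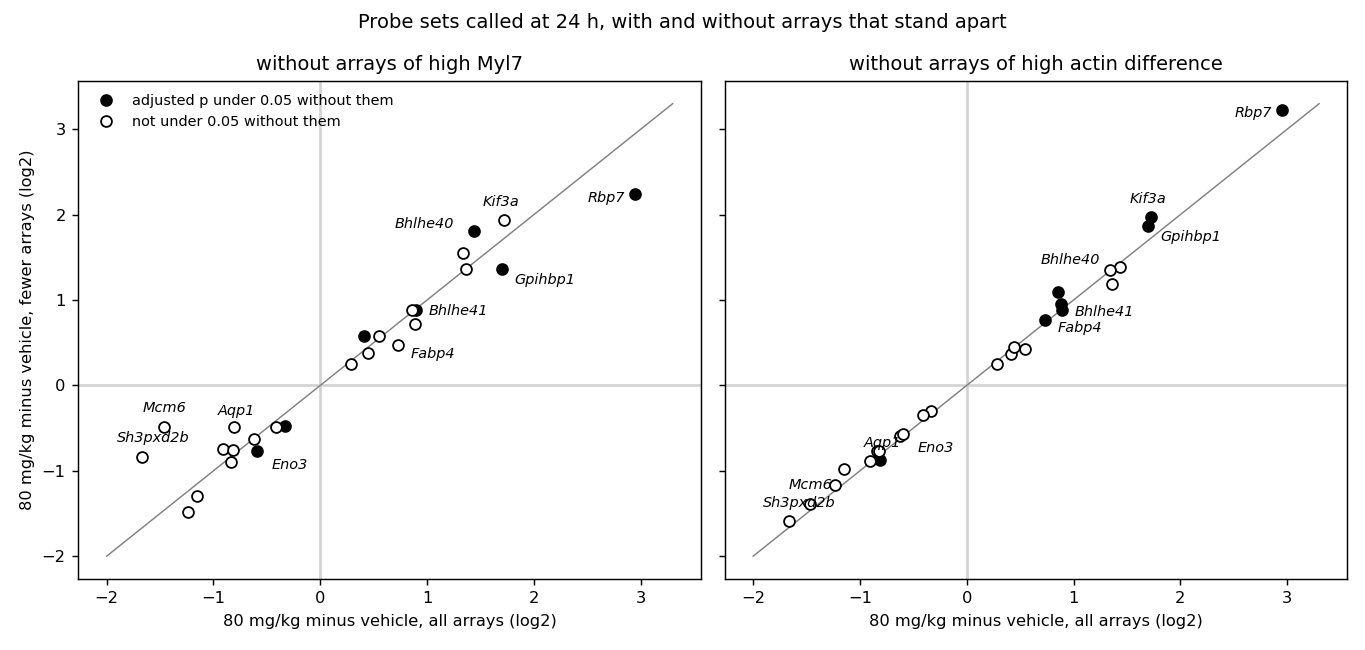
Difference between 80 mg/kg and vehicle (log2) of the 26 called probe sets with all arrays (horizontal axis) and without the arrays of high Myl7 (left) or high actin difference (right, vertical axis). The diagonal marks equal values, filled points have an adjusted p under 0.05 without those arrays, and Mcm6 and Sh3pxd2b lie far off the diagonal on the left only.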

How the data were processed

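Total RNA of cardiac muscle kept in RNAlater was labelled with biotin and hybridised, 1 array per sample, per the labels. The authors deposited a linear intensity for every probe set on every array. The submitters' processing notes name GCOS and MAS5, and MAS5 works on each array alone. Signals were not on a common scale as deposited, with medians of 44.6 to 73.5 over the 11 arrays, so log2 signals were quantile normalized over all 62 arrays. The number of arrays limits the precision.

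The table held 31099 probe sets, of which 57 controls were left out. Probe sets with a mean at or above the 40th percentile were tested. Of these 14260 carried 1 gene by the platform's annotation (10557 genes). In the lists and the fixed set a gene was represented by its brightest such probe set. A called gene was given by its called probe set, which for Kif3a, Eola2 and Lsm11 was not the brightest. A linear model with 12 group means (50 residual degrees of freedom) was fitted (limma 3.58.1, R 4.3.3), and two-sided p-values were adjusted by Benjamini-Hochberg over all 18625 probe sets. No 2 arrays were identical, and rank correlations within a group lay between 0.896 and 0.962. On simulated data of this comparison the fit recovered 32%, 84%, 86% and 96% of 50 probe sets changed by 0.5, 1, 1.5 and 2 (log2), and it called 4 unchanged probe sets in all. The simulated noise was normal and independent between probe sets and arrays. It held no clusters and no arrays of high Myl7 or high actin difference, so these rates may not hold for the real arrays.

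Genes named were the called ones with 1 gene, a fixed set of metabolic, clock and cardiac genes whatever their p, up to 3 members of each of 33 lists (559 genes, 448 tested) by p, and the genes called in the time and dose contrasts. Genes outside this rule were chosen after their values were seen, among them Pecam1, Kdr, Cldn5 and Vwf. The members and lists were chosen with earlier results of these data known. The groups came from the labels, with vehicle as background. Alternatives changed the scale, filter, samples, weights, blocks, covariates, arrays and probe set summary. Figures were drawn with matplotlib 3.10.9.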

Additional observations from a re-analysis of the deposited data

Results flagged for a closer look

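In 8 of 134 groups of values examined, each of a gene named here at 80 mg/kg or in vehicle, a single array stood apart from its group by Dixon's criterion, which chance meets in about 1 of 20 groups. Klf13 was at 5.05 in 80 mg/kg replicate 5, where the next array was at 6.46, and at 4.00 in vehicle replicate 3, where the next was at 4.99. Per2 was at 5.78 in 80 mg/kg replicate 5, with the next at 6.89. Rbp7 was at 9.001 in vehicle replicate 4, an array with a high actin difference, with the next at 7.84. In vehicle replicate 2 Sh3pxd2b was at 5.03 (next 5.61), Npas2 at 3.51 (next 7.05) and Myl2 at 13.81 (next 13.67). Ppara was at 3.55 in vehicle replicate 3 (next 5.30).

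The effect of 80 mg/kg at 24 h differed from its mean at 6, 168 and 336 h in 7 genes, by a limma contrast adjusted over all tested probe sets. It was higher by 1.80 for Bhlhe40, 1.70 for Dbp, 1.11 for Bhlhe41 and 0.67 for Tcap, and the contrast was −1.74 for Mcm6, −1.02 for Palmd and −0.53 for Fam43a.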

How the results depend on the processing

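The count of 26 for 80 mg/kg against vehicle lay within 1.5 times of itself in 12 of 26 alternatives, and the cause of the other shifts was not tested. It was 1 on the scale as deposited, 214 with median scaling, 0 with the 11 arrays alone in limma (1690 at an unadjusted p under 0.05), 12 with a block for array cluster, 48 with array weights, 11 with Myl7 as a covariate, 8 without the high-actin arrays and 7 without these and the high-Myl7 arrays, an alternative chosen after seeing the data. Leaving out 1 array gave 7 to 46, with 7 without 80 mg/kg replicate 2, 14 without replicate 4, and 13, 46 and 10 without vehicle replicates 1, 2 and 4. The count of 7 for the time contrast was 0 as deposited, 99 with median scaling, 3 with no filter, 12 with weights, 1 with the cluster block, 3 with the Myl7 covariate, 19 without high-Myl7 arrays, 1 without high-actin arrays and 0 without both, and 1 to 11 with 1 array left out. The count of 2 for 80 against 10 mg/kg was 1 as deposited, 0 with the 10 arrays alone, 1 with the Myl7 covariate, 8 without high-Myl7 arrays, 5 without high-actin arrays, 8 without both, 4 with probe sets averaged per gene, and 0 to 4 with 1 array left out. Whether arrays with the same replicate number are paired cannot be told from these values. Correlations of same-numbered deviations ran from −0.02 to 0.19, and 2 of 5 numbers matched best with their own. With the replicate block the count was 28 in all arrays and 1 in the 24 h arrays, and for 80 against 10 mg/kg it was 0 in the 24 h arrays. Direction reversed for Myl12a on the deposited scale (−0.029) and for Afdn with probe sets averaged (0.22). In 4 of the 26 the call held in all 11 fits with 1 array left out. Dim probe sets limit the sizes given for Kif3a, Klf13, Mcm6, Sh3pxd2b, Eola2 and Arhgap15.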
